A study of Bos taurus with 81 samples.

Results

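In bovine blastocysts, 1969 autosomal regions carried H3K4me3 and H3K27me3 together in the inner cell mass (ICM) or the trophectoderm (TE) and did not carry the pair in the morula (MO). They were chosen by the peak lists themselves: every base of a region lay under a peak in both H3K4me3 lists and both H3K27me3 lists of a lineage, bases covered in all 4 MO lists were cut out, and what was left had to be 500 bp or longer. Without the MO condition the lineages held 3591 such stretches, of which 1949 contained a region. By lineage, 300 regions were ICM-only, 1178 were TE-only and 491 were shared, meaning that an ICM stretch and a TE stretch overlapped. Because the rule used these lists, the counts, lengths and the state of both marks in ICM, TE and MO are descriptions.

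The embryos were produced in vitro from oocytes of slaughterhouse ovaries, fertilised with frozen semen and cultured without inhibitor unless stated. Morulae were collected at 122 h and blastocysts (BL) at 172 h after insemination, when ICM was isolated by immunosurgery and TE was cut off with a micro scalpel. Earlier groups were germinal vesicle oocytes (GV), embryos of 2, 4 and 8 cells (2C, 4C, 8C), and 8-cell embryos kept in 50 µg/ml α-amanitin, a blocker of transcription (8A). A library held about 500 oocytes or 1000 to 1500 pooled blastomeres, with 2 libraries for every mark in a group and 3 for ATAC-seq in BL, ICM and TE. The labels do not say whether replicate libraries came from separate cultures, so their spread may be technical.

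H3K4me3 is the methylation mark of active and poised promoters, and H3K27me3 is laid down by Polycomb repressive complex 2 over genes that are kept silent. Where both lie on one promoter, the region is called bivalent, a state known from developmental regulator genes in pluripotent cells. H3K27ac sits on the same lysine as H3K27me3, so a single histone tail cannot carry both, and H3K9me3 marks heterochromatin. The ICM gives rise to the fetus and the TE to the placenta. In pooled cells, both marks over a region may lie on one nucleosome, on different alleles or in different cells, and these cannot be told apart. Likewise, fewer cells with a mark and less of the mark per cell cannot be told apart.

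Positions are on the ARS-UCD1.2 build and are counted from 1. Gene names and sequences were not analysed here, since the annotation at hand was of another assembly, and the labelled lineages were therefore not checked against marker genes. Sequencing depth was unknown. The H3K4me3 lists of ICM covered 37.7 to 38.5 Mb of the autosomes, those of TE 44.9 to 46.8 Mb and those of MO 43.4 to 48.1 Mb. For H3K27me3 the ICM lists covered 245.6 to 246.1 Mb, the TE lists 268 to 278 Mb and the MO lists 149 to 163 Mb. Replicate lists of these marks shared 72.2% to 77.9% of the bases covered by either.

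TE-only regions outnumbered ICM-only regions with the lists as deposited, and the ratio changed when the lists were trimmed to 1 length. What the length of the lists reflects was not tested. The ratio was 3.93 with the lists as deposited. With the lists of ICM, TE and MO each trimmed per mark to the shortest by dropping the lowest-scored peaks, there were 254 ICM-only, 283 TE-only and 118 shared regions, a ratio of 1.11. With only the ICM and TE lists trimmed, a setting added after seeing the data, the counts were 468, 466 and 304. Leaving out 1 list at a time moved the ICM-only count to between 249 and 543, the latter without replicate 1 of ICM H3K4me3 and 490 without replicate 2. It moved the TE-only count to between 1064 and 1944, the latter without replicate 2 of TE H3K4me3. Both marks together covered 2.84 Mb in ICM, 8.62% of the H3K4me3 common to its lists, and 3.98 Mb or 10.1% in TE.

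The regions were short. The median length was 800 bp for ICM-only, 850 bp for TE-only and 1350 bp for shared regions, the last being merged from the stretches of both lineages. Lengths reached 4750, 4450 and 5200 bp, and 36.7%, 39.3% and 74.3% of the regions were 1000 bp or longer. At the length limit, 59 ICM stretches measured 500 bp and lay just inside, and 65 of 450 bp lay just outside. In TE these were 132 and 122. Some bases carried both marks in the other lineage as well in 55 of the ICM-only and 119 of the TE-only regions. In 28 and 51 of these they made up at least 50% of the region, in stretches of under 500 bp once the MO bases were cut out. In addition, 288 of all regions bordered bases that carried both marks in MO.

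Most regions lay inside wider H3K27me3 domains and took up a whole H3K4me3 stretch. Domains and stretches here are bases common to both lists of the lineage, so a stretch can be shorter than a deposited peak. The H3K27me3 stretch that held a region had a median length of 8.4 kb for ICM-only regions in ICM and 8.0 kb for TE-only regions in TE. For shared regions it was 7.6 kb in ICM and 8.6 kb in TE. The region was the entire H3K4me3 stretch in 61.3% of ICM-only and 65.1% of TE-only cases. It touched the edge of the H3K27me3 domain in 26.0% and 26.6%, and lay 1 kb or more inside it in 47.0% and 46.5%. H3K27me3 peaks were deposited on a 200 bp grid with gaps of at least 1200 bp and H3K4me3 peaks on a 50 bp grid, so the lengths of the marks are not comparable with each other.

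Across the autosomes the regions followed the supply of H3K4me3 stretches in part. Chromosome 1 had the fewest per length, 3.22 per 10 Mb, and chromosome 19 the most, 21.8 per 10 Mb or 138 regions. Per 100 H3K4me3 stretches the range was narrower, from 5.61 on chromosome 23 to 12.4 on chromosome 27, with a median of 8.97. With a gap of up to 50 kb, 1185 regions stood alone and the other 784 formed 314 runs. ICM-only regions stood apart from others of their class in 86.7% of cases, TE-only regions in 62.5% and shared regions in 83.3%, where class sizes differ. The run with the most regions held 10 of them, 6 TE-only and 4 shared, over 78.9 kb of chromosome 16 from 46873001 to 46951900. The TE-only run with the most regions held 7 on chromosome 18 from 61945201 to 62069650. The shared class had 5 on chromosome 19 from 44115501 to 44183400. The largest ICM-only runs held 3 each, on chromosome 5 from 115268251 to 115294400 and on chromosome 4 from 29487001 to 29507200.

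In the other lineage, most regions kept one of the marks. A mark was called present where at least 50% of the region was covered in both lists, absent where it was not so covered in either list, and unsettled otherwise. The yardstick for all counts below was the 22611 stretches of 500 bp or longer covered in both H3K4me3 lists of ICM or of TE, which include those holding the regions. Of the 300 ICM-only regions, 151 (50.3%) kept H3K4me3 in TE and had no H3K27me3 there, 31 (10.3%) kept H3K27me3 and had no H3K4me3, and 1 had neither. Another 31 had each mark over 50% of the bases in TE. Once the MO bases were cut out, these lacked a 500 bp stretch with both marks in all TE lists. The other 86 were unsettled. Of the 1178 TE-only regions, 407 (34.6%) had H3K4me3 alone in ICM, 293 (24.9%) had H3K27me3 alone, 65 (5.52%) had neither, 57 (4.84%) had each, and 356 were unsettled.

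H3K27me3 was thus absent in TE at 156 (52%) of the ICM-only regions, and H3K4me3 at 34 (11.3%). In ICM, H3K27me3 was absent at 505 (42.9%) of the TE-only regions and H3K4me3 at 383 (32.5%). Over the reference stretches H3K27me3 was absent in 83.3% in TE and 84.3% in ICM, and H3K4me3 in 5.26% in TE and 19.2% in ICM. The rule fixed these states, so nothing is read from the gap to the reference. The count of ICM-only regions without H3K4me3 in TE became 67 without TE H3K4me3 replicate 1. Absence then rests on 1 list, so leaving out a list can only keep or raise this count.

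**Figure D1:**
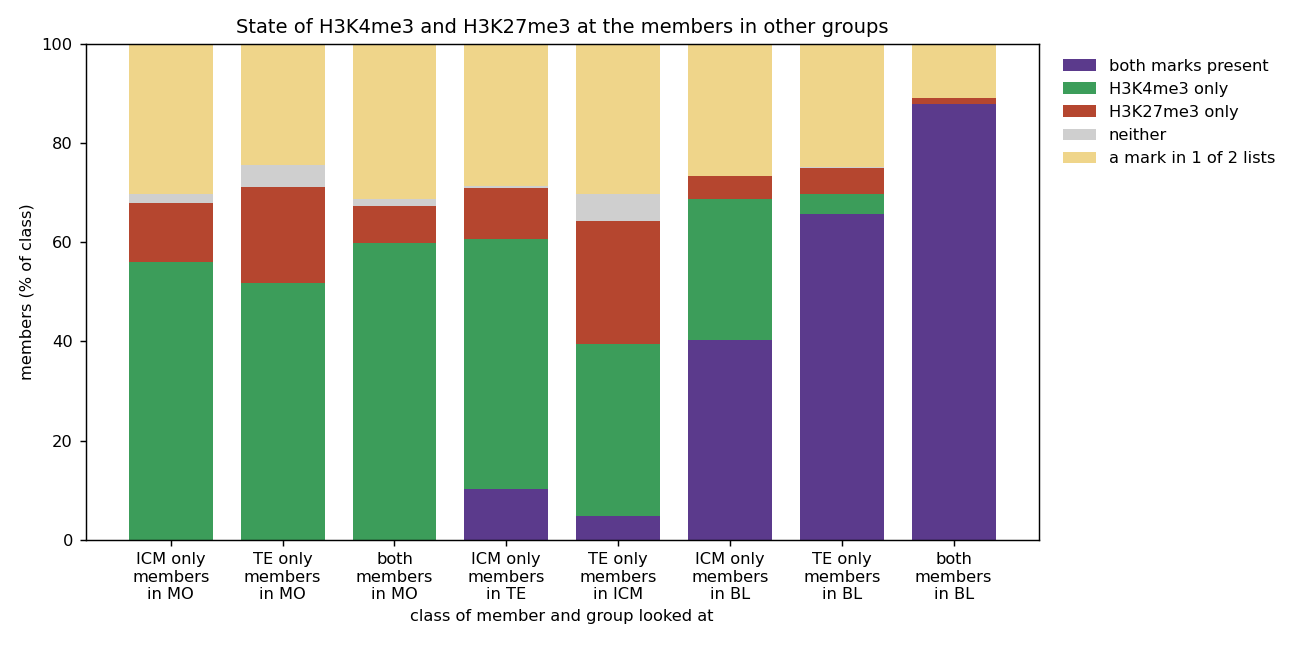
Stacked bars give the percent of regions of each class (ICM only, TE only, both meaning shared) by the state of H3K4me3 and H3K27me3 in MO, in the other lineage and in whole blastocysts, each mark judged separately over at least 50% of the bases. H3K4me3 alone is the largest settled state in MO (56%, 51.7% and 59.9%) and in the other lineage (50.3% and 34.6%), whereas in whole blastocysts both marks are present at 40.3%, 65.8% and 88.0%.

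At the morula, H3K4me3 was already there at most regions, and H3K27me3 was absent at more regions than H3K4me3. H3K4me3 was present and H3K27me3 absent in MO at 168 (56%) of the ICM-only, 609 (51.7%) of the TE-only and 294 (59.9%) of the shared regions. The reverse, H3K27me3 without H3K4me3, was found at 36 (12%), 229 (19.4%) and 37 (7.54%). Neither mark was called at 5, 53 and 6 regions. H3K27me3 was absent in MO at 175 (58.3%), 694 (58.9%) and 304 (61.9%) regions, less often than in the reference stretches with 85.3%. H3K4me3 was absent in MO at 43 (14.3%), 300 (25.5%) and 45 (9.2%) regions, beside 19.7% of the reference stretches. The count of 45 became 68 without replicate 2 of MO H3K4me3. The rule used the MO lists, so nothing is read from these gaps to the reference. The MO H3K27me3 lists were the shortest of the 3 groups, and the part of this length in the missing mark was not tested.

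Whole blastocysts, whose libraries the rule did not use, carried both marks at many of the regions. Both marks lay over at least 50% of the same bases in all 4 BL lists at 116 (38.7%) of the ICM-only, 763 (64.8%) of the TE-only and 428 (87.2%) of the shared regions, beside 12.1% of the reference stretches. H3K27me3 marked 63.0% of the ICM-only regions in each BL list. It marked 88.2% and 92.7% of the TE-only and 98.0% and 99.6% of the shared regions, beside 16.6% of the reference in each list. The classes did not overlap in either BL list. H3K4me3 marked 85.3% and 94.0% of the ICM-only, 81.6% and 92.0% of the TE-only and 91.0% and 98.2% of the shared regions in BL, beside 92.2% and 95.6% of the reference, so here the classes overlapped. A blastocyst holds cells of both lineages, and their shares in these pools were not measured.

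Before the morula, H3K4me3 covered the regions more often than other H3K4me3 stretches, and H3K27me3 was rare between the oocyte and the morula. H3K4me3 marked 84.0% and 84.3% of the ICM-only, 82.6% and 84.8% of the TE-only and 85.5% and 87.8% of the shared regions in GV, beside 45.7% and 51.0% of the reference. From 2C to 8C the lists gave 85.0% to 94.0%, 89.98% to 97.6% and 93.7% to 97.8%, beside 57.1% to 71.1%. In every one of these libraries each class lay above the reference. H3K4me3 was present at all of GV, 2C, 4C and 8C in 201 (67.0%), 816 (69.3%) and 377 (76.8%) regions, against 31.6% of the reference and 28.0% of the 20691 reference stretches that held no region. The regions are parts of stretches and the reference stretches are whole, with a median of 1550 bp, so their lengths differ. Compared as whole stretches, those holding an ICM-only, TE-only or shared region were marked by H3K4me3 in GV at 80.9%, 83.4% and 86.5% (mean of both lists), against 45.0% of those holding none. The GV H3K4me3 lists covered 5.67% and 7.08% of the autosomes and those of MO, ICM and TE 1.51% to 1.93%.

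H3K27me3 marked 36.7% and 27.7% of the ICM-only, 49.3% and 40.0% of the TE-only and 49.1% and 35.2% of the shared regions in GV, beside 17.0% and 13.6% of the reference. From 2C to 8C it marked 2.0% to 4.0% of the ICM-only, 4.67% to 10.7% of the TE-only and 1.22% to 4.68% of the shared regions, beside 4.89% to 8.95%. By MO it marked 31.3% to 31.7%, 34.2% to 35.2% and 25.1% to 25.5%, beside 13.1% to 13.3%. The mark was thus more frequent in GV than from 2C to 8C, and more frequent again in MO, and the reference went the same way. The rule used the MO lists and cut out bases with both marks there, so nothing is read from the level in MO. The lists were not trimmed to 1 length for these shares, so the part of list length was not tested. It was present in GV and absent at 2C, 4C and 8C in 74 (24.7%), 363 (30.8%) and 157 (32.0%) regions, against 10.3% of the reference. Both marks lay over the same bases in all 4 GV lists at 61 (20.3%), 365 (31.0%) and 130 (26.5%) regions, against 9.15%.

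**Figure D2:**
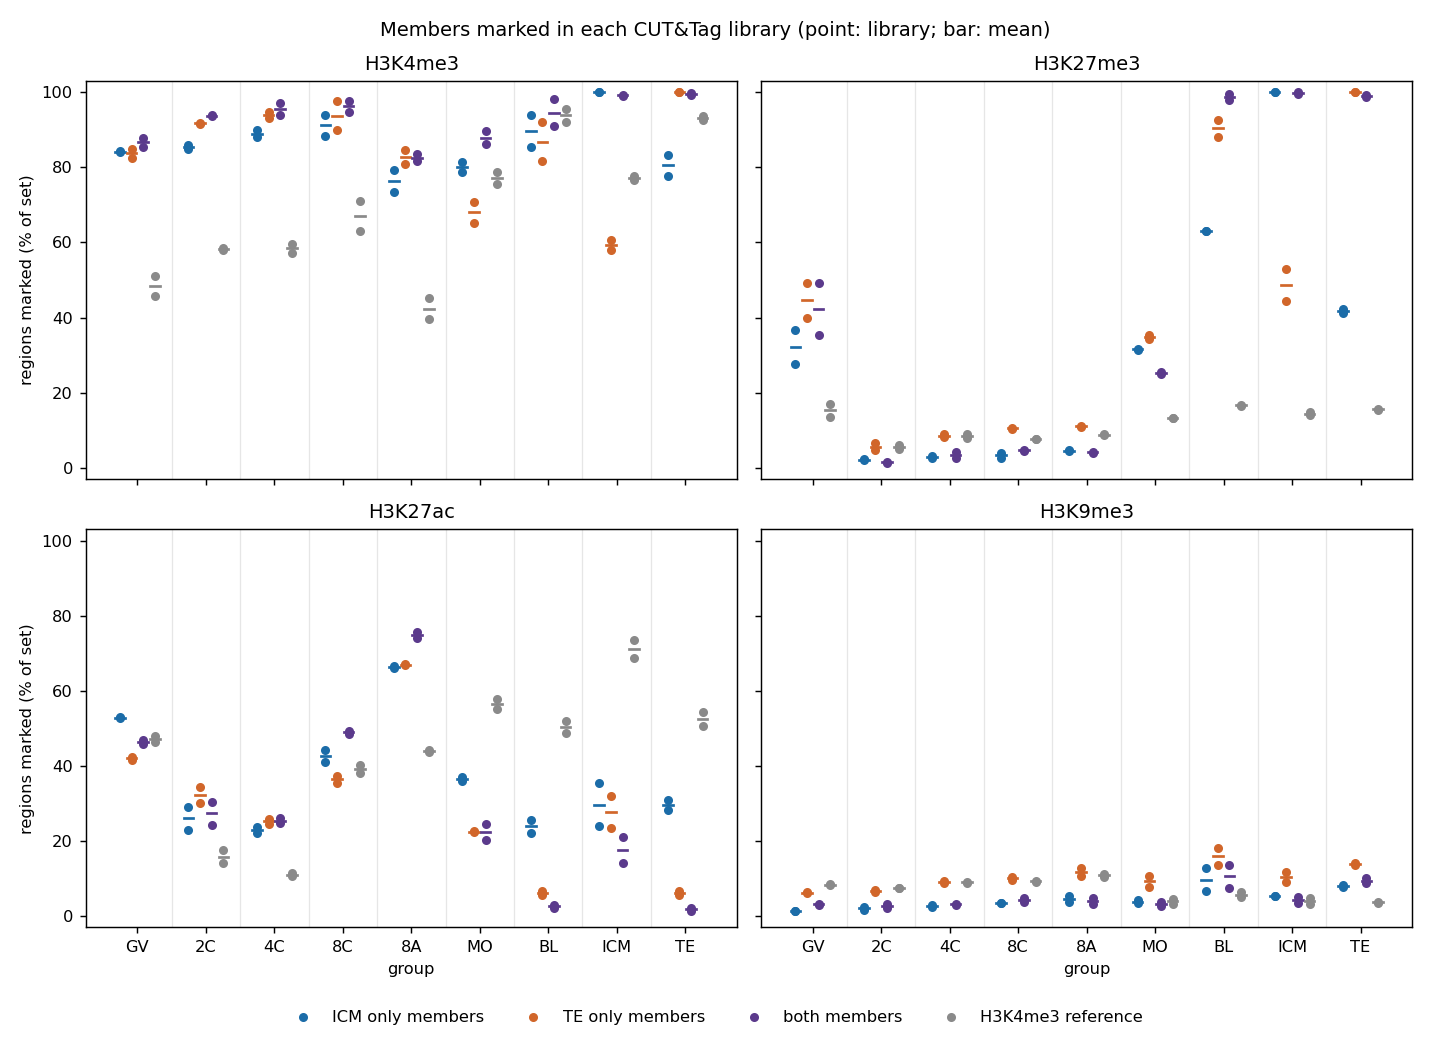
Each panel plots, for one mark, the percent of regions of each class with at least 50% of their bases under peaks (y axis) in every library of the CUT&Tag groups (x axis), with points for libraries, short bars for their mean, and grey for the reference stretches. H3K27me3 is at most 10.7% in 2C, 4C and 8C and at most 11.2% in 8A in all 3 classes, and 27.7% to 49.3% in GV, and H3K27ac in TE and BL is at 1.43% to 6.71% in TE-only and shared regions.

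Open chromatin lay over most of the regions in both lineages, as it did over most reference stretches. Peaks of ATAC-seq, which tags accessible DNA, marked 89.0%, 91.0% and 88.3% of the ICM-only regions in the 3 ICM libraries and 86.3%, 90.3% and 87.3% in the TE libraries. For TE-only regions these were 83.4%, 85.0% and 81.1% in ICM and 84.1%, 89.0% and 82.0% in TE. Shared regions were marked in 93.5%, 96.3% and 92.5% in ICM and 91.2%, 93.9% and 88.2% in TE. The libraries of the lineages overlapped in each class. With the ATAC lists trimmed to 1 length they did not overlap for ICM-only regions, at 88.3% to 89.7% in ICM and 86% to 87% in TE, or for shared regions, at 92.5% to 94.7% and 88.0% to 91.2%. The reference as deposited stood at 77.3% to 82.0% in ICM and 81.0% to 85.8% in TE. Trimmed, it stood at 77.15% to 78.63% in ICM and 80.5% to 82.31% in TE, without overlap and higher in TE.

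Region by region, 236 (78.7%) ICM-only, 776 (65.9%) TE-only and 400 (81.5%) shared regions were open in every ICM and every TE library, beside 64.6% of the reference. The TE-only share was thus near that of the reference. Open in no library were 10, 44 and 3 regions, beside 7.14%, and the count of 3 was 5 or 8 without replicate 1 or 2 of ICM. Open in all TE and in no ICM library were 4, 36 and 4, beside 4.37%, and in all ICM and no TE library 3, 9 and 0, beside 1.5%. Leaving out 1 library gave 3 to 6, 13 to 26 and 0 to 8 for the latter, the highest without TE replicate 2.

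H3K27ac, the acetyl mark of active promoters and enhancers, was scarcer at the regions than over the reference stretches in both lineages. Of the reference stretches, 84.3% in ICM and 83.3% in TE lacked H3K27me3, and those that had it are given below. In the ICM libraries it marked 35.3% and 24.0% of the ICM-only, 31.8% and 23.3% of the TE-only and 21.0% and 14.1% of the shared regions, beside 73.4% and 68.6% of the reference. In the TE libraries it marked 28.3% and 31.0%, 5.52% and 6.71%, and 2.24% and 1.43%, beside 50.7% and 54.3%. The lineages overlapped for ICM-only regions and did not overlap for the other 2 classes or for the reference, all of which were higher in ICM. The ICM H3K27ac lists were longer than those of TE.

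With the H3K27ac lists trimmed to 1 length, TE-only regions were marked at 10.8% to 12.7% in ICM and 5.52% to 5.94% in TE. Shared regions stood at 5.09% to 6.93% and 1.43% to 2.24%, and the reference at 54.9% to 56.5% and 50.7% to 52.9%. ICM-only regions then stood at 13.3% to 16.7% in ICM and 28.3% to 28.7% in TE, a difference of -13.5 percentage points where the deposited lists gave 0. Trimming thus left the TE-only and shared classes higher in ICM by less, and put the ICM-only class higher in TE.

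In single regions, acetylation was absent more often than over the reference stretches as a whole. No ICM or TE library marked 157 (52.3%) ICM-only, 719 (61.0%) TE-only and 375 (76.4%) shared regions, beside 18.9% of the reference. All 4 libraries marked 38 (12.7%), 15 (1.27%) and 4 (0.815%), beside 40.1%. Without TE replicate 1 the 15 became 28, and without replicate 2 they became 23 and the 4 became 8. Marked in both ICM and no TE library were 19 (6.33%), 206 (17.5%) and 48 (9.78%), beside 17.1%, a share near the background for the TE-only class. Without ICM replicate 2 these counts were 35, 325 and 92. Marked in both TE and no ICM library were 17 (5.67%), 22 (1.87%) and 1, beside 4.33%. These became 32 ICM-only without ICM replicate 1, 27 without TE replicate 1, and 38 or 35 TE-only without TE replicate 1 or 2. The shared count was 2 without TE replicate 2.

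Splitting the regions by the mark absent in the other lineage set the acetyl mark of the lineages further apart at TE-only regions. H3K27ac was not used to choose the regions or these subsets. At the 407 TE-only regions with H3K4me3 alone in ICM, H3K27ac marked 60.2% and 47.7% in ICM and 3.93% and 5.65% in TE. After trimming these were 25.3% to 28.5% and 3.93% to 4.91%. In MO, 37.1% and 37.8% carried it, and in BL 8.60% and 9.83%. Of the 407, 154 (37.8%) were marked in both ICM and no TE library, and 0 the other way round, beside 17.1% and 4.33% of the reference. Leaving out 1 library gave 160 to 219 and 0 to 3. Acetylation was therefore higher in the lineage that lacked H3K27me3 in every library, before and after trimming.

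The 151 ICM-only regions with H3K4me3 alone in TE gave the opposite order, with a smaller gap as deposited and a larger one trimmed. H3K27ac marked 47.0% and 52.3% in TE and 41.1% and 29.1% in ICM, and after trimming 47.0% to 49.0% and 17.9% to 20.5%. In MO it marked 45.7% and 49.0%, and in BL 38.4% and 44.4%. Of these, 17 (11.3%) were marked in both TE and no ICM library and 4 the other way round, and 29 in all 4. The 17 became 30 without ICM replicate 1 and to 27 without TE replicate 1. Thus, even with the shorter TE lists, each TE library was above each ICM library here, and over the reference the order was the reverse. In percentage points of ICM minus TE, the H3K27ac gap here was -14.6 as deposited and -28.8 trimmed. At the TE-only regions with H3K4me3 alone in ICM it was 49.1 as deposited and 22.5 trimmed. Which gap was the wider therefore depended on list length.

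The same split was seen over all H3K4me3 stretches. In ICM, H3K27ac marked 16.3% and 10.6% of the 2962 reference stretches with H3K27me3 and 83.5% and 79.1% of the 19051 without. In TE it marked 4.22% and 4.93% of 3269 and 59.8% and 64.1% of 18826. Both groups of stretches include those that hold the regions. Beside the stretches with H3K27me3, acetylation was not scarcer at 1-lineage regions in their own lineage. ICM-only regions were above them in ICM, at 35.3% and 24.0%, and TE-only regions in TE, at 5.52% and 6.71%. Shared regions overlapped them in ICM, at 21.0% and 14.1%, and were below them in TE, at 2.24% and 1.43%. Over the reference stretches, open chromatin did not go down with H3K27me3. In ICM, ATAC peaks marked 82.2% to 87.3% of the stretches with it and 76.1% to 81.1% without it, without overlap. In TE these were 83.5% to 89.6% and 80.4% to 85.0%, with overlap. At the regions split above, the lineage with H3K27me3 was the less open. The 407 TE-only regions stood at 97.05% to 97.79% in ICM, which lacked H3K27me3, and 87.71% to 94.59% in TE. The 151 ICM-only regions stood at 92.05% to 92.72% in ICM and 95.36% to 98.01% in TE, which lacked it. Neither pair overlapped, as deposited or trimmed.

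**Figure D3:**
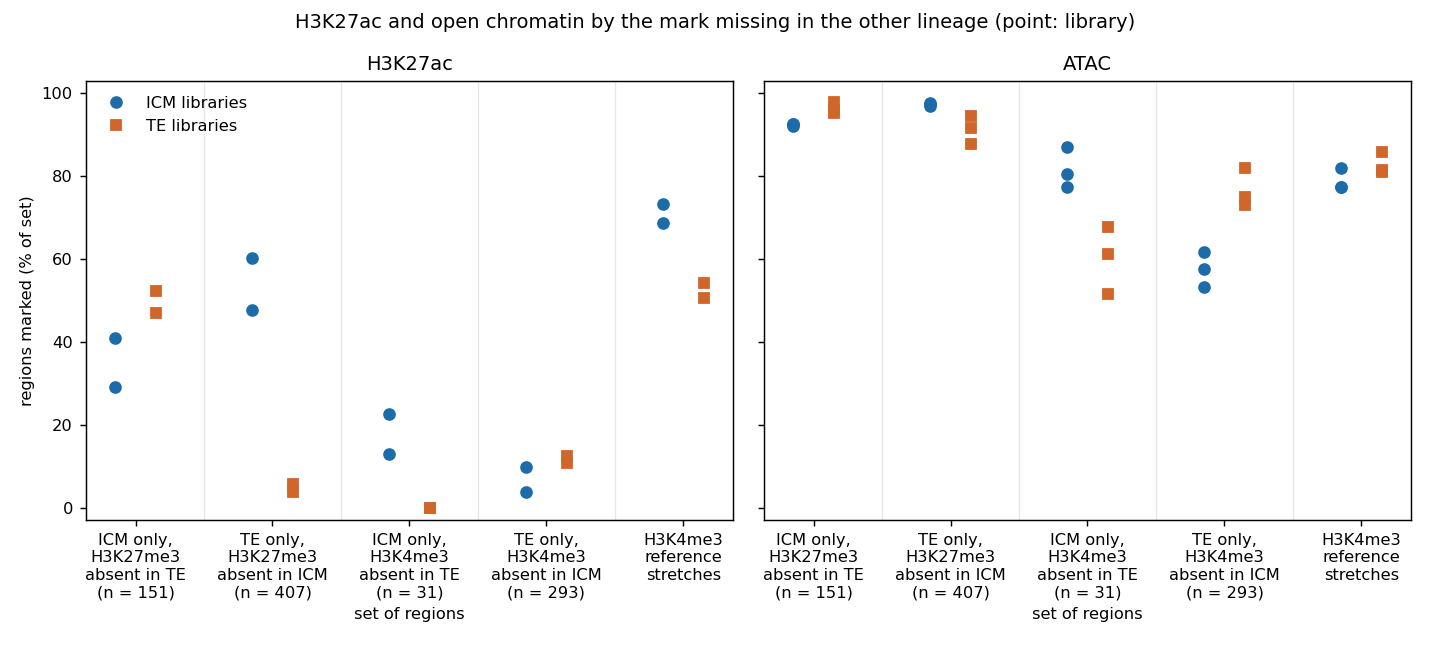
Points give the percent of regions marked by H3K27ac (left) and ATAC (right) in each ICM and TE library, for subsets by the mark absent in the other lineage and for the reference stretches. H3K27ac stands at 47.7% to 60.2% in ICM and 3.93% to 5.65% in TE for TE-only regions without H3K27me3 in ICM. ATAC is lower in the lineage that lacks H3K4me3 where that mark is absent. Where H3K27me3 is the absent mark, ATAC is higher in the lineage that lacks it.

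Where H3K4me3 was the missing mark, the regions were less open in the lineage that lacked it. At the 293 TE-only regions with H3K27me3 alone in ICM, ATAC peaks marked 57.7%, 61.8% and 53.2% in ICM and 75.1%, 81.9% and 73.0% in TE. At the 31 ICM-only regions with H3K27me3 alone in TE they marked 80.6%, 87.1% and 77.4% in ICM and 51.6%, 67.7% and 61.3% in TE. The libraries did not overlap in either subset, nor after trimming, when the TE-only subset stood at 53.2% to 57.3% against 71.3% to 73.7% and the ICM-only subset at 77.4% to 80.7% against 51.6% to 61.3%. Open in all TE and no ICM library were 31 (10.6%) of the 293, beside 4.37% of the reference, and 0 the other way round, or up to 7 with 1 library left out. H3K27ac was low here in both lineages, at 9.90% and 3.75% in ICM and 10.9% and 12.6% in TE for TE-only regions, and 22.6% and 12.9% against 0% in both TE libraries for the ICM-only ones. Trimmed, these were 0.683% to 2.05% against 10.9% to 11.6%, and 3.23% to 6.45% against 0%.

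H3K9me3, the heterochromatin mark, covered few of the regions, and a larger share of the TE-only regions with H3K27me3 alone in ICM. Over whole classes it marked 5.33% and 5.33% of the ICM-only, 8.91% and 11.7% of the TE-only and 3.46% and 5.09% of the shared regions in ICM. In TE these were 8.33% and 7.67%, 14.1% and 13.6%, and 9.98% and 8.76%, beside 3.25% to 4.82% of the reference over both lineages. At the 293 TE-only regions without H3K4me3 in ICM it marked 25.6% and 32.4% in ICM, 35.2% and 32.4% in TE, 20.1% and 29.7% in MO and 36.9% and 45.0% in BL. At the 407 without H3K27me3 in ICM it marked at most 1.47% in the ICM and TE libraries. The 31 ICM-only regions with H3K27me3 alone in TE stood at 16.1% and 12.9% in ICM and 25.8% in both TE libraries. Reference stretches with H3K27me3 stood at 16.1% and 21.6% in ICM and 20.5% and 19.5% in TE, and those without it at 0.786% to 2.19%, so among reference stretches too the share was higher with H3K27me3. Trimming the lists brought the lineage difference to 0 for TE-only regions, so no order of ICM and TE is given.

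The longest regions of each class are given as the percent of the region under peaks in each library, and not all of them follow these patterns. The ICM-only region of 4.75 kb on chromosome 14, from 12654951 to 12659700, lay in an H3K27me3 domain of 37.4 kb in ICM. H3K27me3 covered 100% in both ICM and both BL lists and 0% in the TE and MO lists. H3K4me3 covered 97.9% or more in MO, ICM and TE. H3K27ac was at 0% in both ICM lists, 33.7% in both TE lists and 59.0% and 51.6% in MO, so of MO, ICM and TE it was missing in ICM, which had H3K27me3. BL, with H3K27me3 as well, had 12.6% and 27.4%. ATAC peaks covered 85.3%, 81.1% and 73.7% in ICM and 70.5%, 66.3% and 75.8% in TE, with overlap.

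The other 3 ICM-only regions had H3K27me3 over 100% in ICM and differed elsewhere and in acetylation. On chromosome 7, from 54461751 to 54465350, H3K27me3 covered 100% in ICM and 0% in TE and MO, and the BL lists disagreed with 0% and 100%. H3K27ac there was at 19.4% and 16.7% in ICM and 20.8% and 0% in TE. On chromosome 16, from 78839751 to 78843000, H3K27ac was higher in ICM, with 80% and 50.8%, than in TE, with 29.2% and 12.3%, although H3K27me3 covered 100% in ICM and 26.2% and 20.0% in TE. This is the opposite order to the subset as a whole. On chromosome 12, from 83413051 to 83415800, H3K27ac was at 0% in MO, ICM and TE after 87.3% and 74.5% in 8C, and H3K4me3 covered 100% in MO, ICM and TE. H3K27me3 there covered 29.1% and 0% in TE and 0% and 41.8% in MO.

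Among TE-only regions, those on chromosomes 18 and 7 had the acetyl mark in MO and ICM and little of it in TE. On chromosome 18, from 50505551 to 50509000, H3K27me3 covered 100% in both TE and both GV lists and 0% in MO, ICM and BL. H3K27ac covered 97.1% and 94.2% in MO, 89.9% and 91.3% in ICM and 0% in both TE lists. H3K4me3 was at 100% in all of MO, ICM and TE. On chromosome 7, from 24262101 to 24265400, H3K27me3 covered 100% in TE and 0% in MO and ICM, and H3K27ac covered 100% in MO, 98.5% and 95.5% in ICM, and 34.8% and 0% in TE. ATAC peaks covered the whole of this region in all 6 libraries of ICM and TE. H3K4me3 there was at 0% in both GV lists and at 97.0% or more in MO, ICM and TE, unlike most regions.

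The longest TE-only region was of the other kind. On chromosome 16, from 79786651 to 79791100 (4.45 kb), H3K27me3 covered 100% in GV, MO, ICM, TE and BL, and H3K4me3 was what differed: 11.2% and 0% in MO, 10.1% and 0% in ICM, and 100% in both TE lists. ATAC peaks covered 18.0%, 29.2% and 19.1% in ICM and 49.4%, 62.9% and 48.3% in TE, without overlap. H3K27ac covered 42.7% in both TE lists and 0% in ICM and MO. H3K9me3 covered 100% and 52.8% in MO, and its ICM lists disagreed with 0% and 93.3%. On chromosome 25, from 30995801 to 30999000, H3K27me3 covered 100% in TE, 37.5% and 0% in ICM and 0% in MO. H3K4me3 covered 93.8% or more in MO, ICM and TE, and no acetyl mark was called in ICM or TE.

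The 4 longest shared regions had H3K4me3 over 97.5% or more in MO and no H3K27me3 there. They lay on chromosome 13 from 36823001 to 36828200 and from 19632151 to 19636000, on chromosome 19 from 52057951 to 52061900, and on chromosome 4 from 104313601 to 104317250. H3K27me3 covered 96.2% or more of each in the ICM lists. In TE it covered 100% in both lists of the pair on chromosome 13, 54.4% and 100% on chromosome 19, and 49.3% and 82.2% on chromosome 4. Those on chromosomes 19 and 4 had H3K27me3 over 100% in both GV lists as well. On chromosome 4, H3K27ac covered 75.3% and 89.0% in MO, 24.7% and 0% in ICM and 24.7% and 26.0% in TE. The region of chromosome 13 that starts at 36823001 had H3K27ac over 62.5% and 41.3% in ICM and 5.77% and 6.73% in TE and 6.73% and 0% in MO. The one that starts at 19632151 had 0% in ICM and TE.

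**Figure D4:**
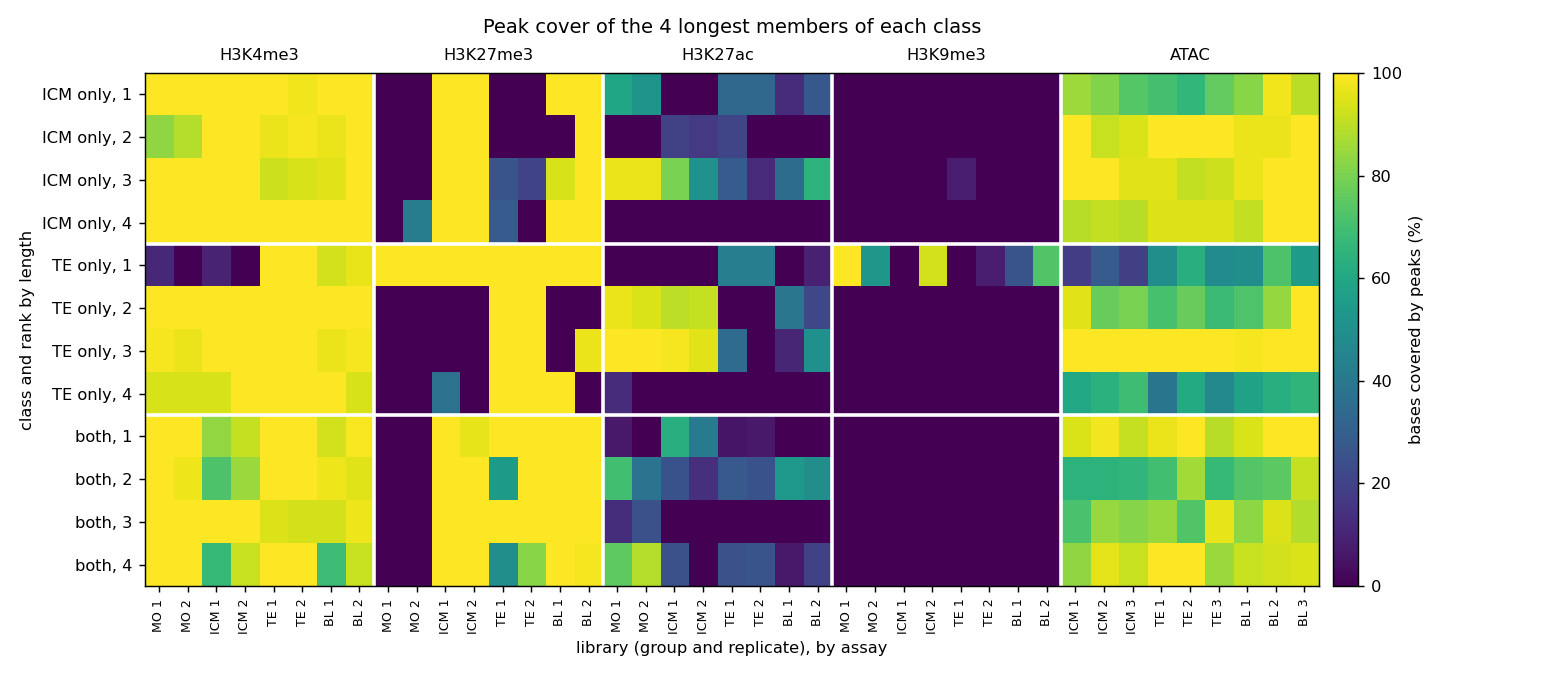
Each row is one of the 4 longest regions of a class (class both meaning shared), each column a library grouped by assay, and the colour the percent of bases covered by peaks from 0 to 100. H3K27me3 is at 0% in both MO lists in 10 of the 12 rows, and the exceptions are ICM only rank 4 with 41.8% in 1 list and TE only rank 1 with 100% in both.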

How the data were processed

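CUT&Tag for H3K4me3, H3K27ac, H3K27me3 and H3K9me3 and ATAC-seq were deposited as 81 peak lists, called by the authors on single libraries. The build was ARS-UCD1.2 and BWA 0.7.9a and SICER were among the tools, per the submitters' processing notes. The names of the lists point to the caller epic2 instead. Which caller made them, with what cutoff and control, is not given in the sources used here. Each deposited peak has a whole-number score whose meaning is not given. It was used only to rank peaks within a list for trimming, in which the lowest-scored peaks of a list were dropped until it covered as many bases as the shortest list of its mark in the groups compared.

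Cover was computed on a 50 bp grid over the 29 autosomes in Python 3.11.15 (pandas 2.3.3, NumPy 2.4.6). Groups and replicate numbers came from the sample titles. The rule that finds the regions was tested on simulated lists. A region counted as marked where at least 50% of its bases were covered. The lists give no library totals, so no interval or limit from depth can be given. No p-value was computed: the members were selected on these marks, and 2 against 2 or 3 against 3 libraries cannot reach an exact two-sided p under 0.333 or 0.1. Values are given per library, with whether the lineages overlapped.

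The members and lists were chosen with earlier results of these data known. Regions named are the 4 longest of each class and the runs with most members. Splits by the state of the marks, calls of every or no library, and trimming of ICM and TE alone were chosen after seeing the data. Gene families and cell type marker lists were planned for an annotation of the same build and were not analysed here.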

Additional observations from a re-analysis of the deposited data

Results flagged for a closer look

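The rule for the regions was limited to the autosomes, and peaks elsewhere entered no comparison. On the X chromosome, stretches meeting the same rule numbered 33 ICM-only, 17 TE-only and 22 shared. Per 10 Mb of X these are 2.37, 1.22 and 1.58, beside 1.21, 4.74 and 1.97 on the autosomes, so on X the ICM-only class was the most frequent and on the autosomes the TE-only class. The difference was not tested, and the sex of the pooled embryos is not given in the labels. Unplaced scaffolds held 5 ICM-only, 6 TE-only and 3 shared stretches.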

How the results depend on the processing

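No paired analysis was possible because the results come from no test. Counts are in the order ICM-only, TE-only and shared, with 300, 1178 and 491 as reported. A minimum of 200 bp gave 533, 1696 and 749, and 1000 bp gave 160, 533 and 225. Keeping a stretch unless all of it had both marks in MO gave 538, 1549 and 824, and accepting any 1 of the replicate lists gave 511, 1798 and 784. Trimmed lists gave 254, 283 and 118, or 468, 466 and 304 with MO as deposited. Leaving out 1 list gave 249 to 543, 1064 to 1944 and 426 to 603. In percentage points of ICM minus TE, the ATAC difference at shared regions was 7.60 with 80% of bases required and 2.99 as reported. For H3K27ac it was -13.5 trimmed at ICM-only regions (0 as reported), 14.2 at 80% and 5.99 trimmed at TE-only regions (21.5), and 7.03 and 4.18 at shared regions (15.7). For H3K9me3 at ICM-only regions it was -2.17 at 80%, -1.57 over bases and 0.167 trimmed (-2.67). Trimmed, it was 0 at TE-only (-3.52) and -1.22 at shared regions (-5.09). Both marks in BL covered 46.7%, 75.6% and 94.5% with any base and 25.7%, 44.1% and 62.5% at 80%. Leaving out 1 list gave 40.0% to 48.7%, 67.4% to 77.6% and 87.6% to 95.7%. ICM-only regions without H3K4me3 in TE numbered 64 at 80% and 50 to 67 without 1 list. Shared regions without H3K4me3 in MO numbered 22 with any base and 51 to 68 without 1 list. Leaving out a list loosens calls of absence, of both marks in BL, and of every or no library. Those values can then only stay or rise. Trimming shows how the values change with list length, but the cause of these shifts was not tested. Of the recomputed values of whole classes 165 stayed the same, 45 moved and 1 reversed. Of those of single patterns and subsets 347 stayed and 117 moved. Unknown depth limits every absence of a mark to absence from a list.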

Other observations

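The 8-cell embryos grown in α-amanitin had H3K27ac at more of the regions than 8-cell embryos grown without it. H3K27ac marked 66.7% and 66.0% of the ICM-only regions in 8A and 44.3% and 41.0% in 8C. At TE-only regions the values were 66.7% and 67.2% against 37.3% and 35.5%, and at shared regions 73.9% and 75.6% against 48.5% and 49.3%. The reference stretches stood at 43.7% and 44.3% against 40.2% and 38.1%. H3K4me3 went the other way, with 73.3% to 84.6% of the regions of the 3 classes marked in 8A and 88.3% to 97.8% in 8C. The reference stretches stood at 45.1% and 39.6% against 62.9% and 71.1%, a wider gap than in the regions. The H3K4me3 lists of 8A were shorter, with 60.43 and 52.25 Mb against 68.65 and 112.5 Mb in 8C. The lists of 8A and 8C were not trimmed to 1 length for either mark, so the part of list length was not tested. The libraries of 8A and 8C did not overlap in any class for either mark.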
